A study of Mus musculus with 4 samples.

Results

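The genes described here were 23 genes whose messenger RNA was at least 2 times as high in both libraries of SON fibroblasts as in either control library. They were chosen from their own measured values. A gene was taken when the deposited table gave it a name, when the mean of its 4 normalized read counts was at least 200, and when its lower SON value was at least 2 times its higher control value. Of the 39179 genes in the table, 9587 had a name and a mean of at least 200. Among these, 28 (0.292%) passed the ratio, while 121 (1.26%) passed the mirrored rule and were halved in both SON libraries. Pou5f1, Col2a1, Igfbp2, Map2 and Dsp were among the 28 and were set aside by name, together with Dppa3, Nanos2 and Uchl1, which left the 23. Because the SON and control values made the choice, the difference between the groups is given for these genes as a description without a test.

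The cells were mouse embryonic fibroblasts (MEFs), cells that make connective tissue, from embryos of the strain BALB/c, at passage 2. SON cells received lentivirus for Stella, encoded by Dppa3, for Oct4, encoded by Pou5f1, and for Nanos2. GFP control cells received lentivirus for green fluorescent protein. Both groups were put under 2 µg/ml puromycin from 72 h after infection for 4 days and were then kept for 21 days without the drug, so infection and selection were common to the controls. Each group had 2 libraries, numbered I and II. The sources used here do not give the promoter of the viruses. Nothing in the labels shows that libraries I and II came from separate cultures, so their spread may not be that between cultures. The source of this spread was not tested, and it was not small. Summed fibroblast markers, for example, were 980928 in GFP control I and 513060 in GFP control II. Infection and later culture of each population coincide with the groups and cannot be told apart from the delivered genes.

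The 23 genes belong to no single pathway. Several encode receptors by which a cell senses its surroundings: integrins bind laminin and other matrix proteins, and netrin and semaphorin receptors steer growing axons and migrating cells. HB-EGF is made as a membrane protein, is shed by proteases and activates the EGF receptor, which signals through ERK kinases, and Dusp5 encodes a phosphatase that removes the activating phosphate groups from ERK in the nucleus. Others encode matrix proteins around microfibrils and basement membranes, an area of fibroblast biology in general.

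The control libraries held 28924700 (I) and 37097571 (II) reads in genes and the SON libraries 17365551 (I) and 14680865 (II), so the SON values rest on fewer reads. All 12 markers of a fibroblast list were found. Their summed normalized read counts were 980928 and 513060 in the controls and 491798 and 437272 in SON, so GFP control I stood apart, and 8 of 12 had a negative log2 difference, with a median of -1.04. Library SON I stood apart in 2 other measures. Its smooth muscle and pericyte markers summed to 376586, against 114716 to 142998 in the other libraries. An 18S ribosomal RNA-like transcript took 0.862% of its reads, against 0.0765% to 0.259%. In bulk RNA, fewer cells of a type and less RNA per cell cannot be told apart.

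Because these genes moved together by construction, their promoters were read for shared short motifs. RefSeq (GRCm38.p6) promoters, each spanning 250 bases before to 50 bases after a transcript start, were given for 19 of the 23 genes, as 23 promoters. Sequences are shown for the 4 genes whose window held TGANTCA (N, any base), a loose form of the AP-1 site of Fos and Jun. Sequences of Adamtsl4 and Dusp5, next after Itga6 by ratio, are shown with GC boxes, the motif of Sp and KLF factors. They are written 5′ to 3′ on the gene's own strand, and capitals mark the motif. For Tmem37 (chr1:120073731-120074030, minus strand), Tinagl1 (chr4:130175073-130175372, minus strand), Efemp1 (chr11:28852955-28853254, plus strand) and Cd80 (chr16:38458683-38458982, plus strand) the capitals are the TGANTCA match. For Adamtsl4 (chr3:95687868-95688167, minus strand) they are GC boxes. For Dusp5 (chr19:53528895-53529194, plus strand) they are 1 GC box and 2 CArG boxes, the motif of serum response factor.
Tmem37 promoter: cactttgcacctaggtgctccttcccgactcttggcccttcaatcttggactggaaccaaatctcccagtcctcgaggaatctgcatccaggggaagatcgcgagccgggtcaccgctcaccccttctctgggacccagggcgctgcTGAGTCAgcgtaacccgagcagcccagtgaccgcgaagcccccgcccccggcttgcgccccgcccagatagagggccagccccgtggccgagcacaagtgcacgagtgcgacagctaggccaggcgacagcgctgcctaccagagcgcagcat
Tinagl1 promoter: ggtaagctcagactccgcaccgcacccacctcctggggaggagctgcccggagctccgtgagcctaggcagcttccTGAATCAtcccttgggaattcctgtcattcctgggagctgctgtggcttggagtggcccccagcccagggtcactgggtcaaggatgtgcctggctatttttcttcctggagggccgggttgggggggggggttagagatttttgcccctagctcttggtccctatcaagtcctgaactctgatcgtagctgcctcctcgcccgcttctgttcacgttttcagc
Efemp1 promoter: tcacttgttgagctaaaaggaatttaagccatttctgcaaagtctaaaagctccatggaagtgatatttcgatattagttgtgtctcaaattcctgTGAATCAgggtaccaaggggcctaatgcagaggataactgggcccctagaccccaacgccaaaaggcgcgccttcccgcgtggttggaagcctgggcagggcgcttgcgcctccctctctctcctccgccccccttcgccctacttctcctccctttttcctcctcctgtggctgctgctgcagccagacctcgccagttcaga
Cd80 promoter: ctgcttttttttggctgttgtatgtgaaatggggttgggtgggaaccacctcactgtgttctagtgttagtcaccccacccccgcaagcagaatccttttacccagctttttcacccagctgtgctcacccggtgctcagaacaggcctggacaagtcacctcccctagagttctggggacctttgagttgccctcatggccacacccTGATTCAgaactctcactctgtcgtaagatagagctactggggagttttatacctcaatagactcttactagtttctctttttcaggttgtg
Adamtsl4 promoter: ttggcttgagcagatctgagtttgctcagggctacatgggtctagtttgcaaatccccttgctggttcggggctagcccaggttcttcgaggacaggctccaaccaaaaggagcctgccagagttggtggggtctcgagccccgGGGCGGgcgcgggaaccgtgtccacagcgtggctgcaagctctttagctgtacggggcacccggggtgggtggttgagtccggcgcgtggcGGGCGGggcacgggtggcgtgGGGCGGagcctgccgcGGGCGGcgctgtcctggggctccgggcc
Dusp5 promoter: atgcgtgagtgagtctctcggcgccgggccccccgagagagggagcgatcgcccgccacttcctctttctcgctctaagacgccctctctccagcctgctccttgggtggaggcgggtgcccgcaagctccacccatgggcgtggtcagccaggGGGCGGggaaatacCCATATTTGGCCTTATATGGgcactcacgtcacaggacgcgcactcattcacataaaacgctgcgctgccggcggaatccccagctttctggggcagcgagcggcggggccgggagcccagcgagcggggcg

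The loose AP-1 pattern (TGANTCA) was in 4 of the 23 promoters (17.4%). It was in 5.04% of 9446 promoters of named genes with a mean of at least 200 and in 7.81% of all 32851 promoters. Its middle base was G in Tmem37, A in Efemp1 and Tinagl1 and T in Cd80. Only Tmem37 thus held the strict site, which has G or C there. The match began 42 bases before the transcript start in Cd80, 103 in Tmem37, 154 in Efemp1 and 174 in Tinagl1. Efemp1 and Tinagl1 were also the 2 most abundant of the 23 genes per length in SON, while Tmem37 and Cd80 were lower. Another listed promoter of Tinagl1 held no such match, and no link between the match and the level was tested. The GC box (GGGCGG) was in 19 promoters of 17 genes (82.6%), against 65.7% of the 9446 and 35.7% of all. The octamer that binds POU domain factors such as Oct4 (ATGCAAAT) was in 0 of the 23, against 1.19% of the 9446 and 1.74% of all. At shares this low, 23 promoters are too few for a count of 0 to say anything about Oct4.

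Other motifs were counted on both strands in the same windows. The CCAAT box (CCAAT) was in 6 promoters (26.1%, against 37.3% of the 9446). The short cAMP response element (TGACG) was in 5 (21.7%, against 32.4%), and the full element (TGACGTCA), which contains the short one, was in 0, against 3.10%. The E-boxes CACGTG and CAGCTG were each in 3 promoters (13.0%), against 10.4% and 14.8%. The letters of the TATA box (TATAAA) were in the promoter of Cd80 alone, against 6.67%. There they lay at +4, after the start and on the opposite strand. CArG boxes, searched after the values had been seen, were in Dusp5 alone, at 82 and 72 bases before the start, and in 1.41% of the 9446. GC content had a median of 68.0% over the 23 promoters, from 49.7% in Cd80 to 81.7% in Pcsk6, against 61.7% over the 9446 and 52.7% over all. These are matches of letters in one window per start, and occupancy by any factor was not measured.

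Across the 23 genes, the mean of the SON libraries was 2.29 to 5.08 times the control mean, with a median of 2.99. The ratio that the rule used, the lower SON value over the higher control value, ran from 2.02 to 3.37, and 11 of the 23 genes lay under 2.2. Levels spanned a wide range. Per length, as reads scaled for exon length and library size (RPKM), the control means ran from 0.452 (Unc5c) to 28.9 (Efemp1) and the SON means from 1.71 (Unc5c) to 114 (Efemp1). After Efemp1, the highest SON means were 29.8 RPKM for Tinagl1, 22.7 for Hbegf, 20.9 for Tmem37 and 19.1 for Dusp5. The fewest reads behind any value were 78, for Tec in GFP control I.

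**Figure D1:**
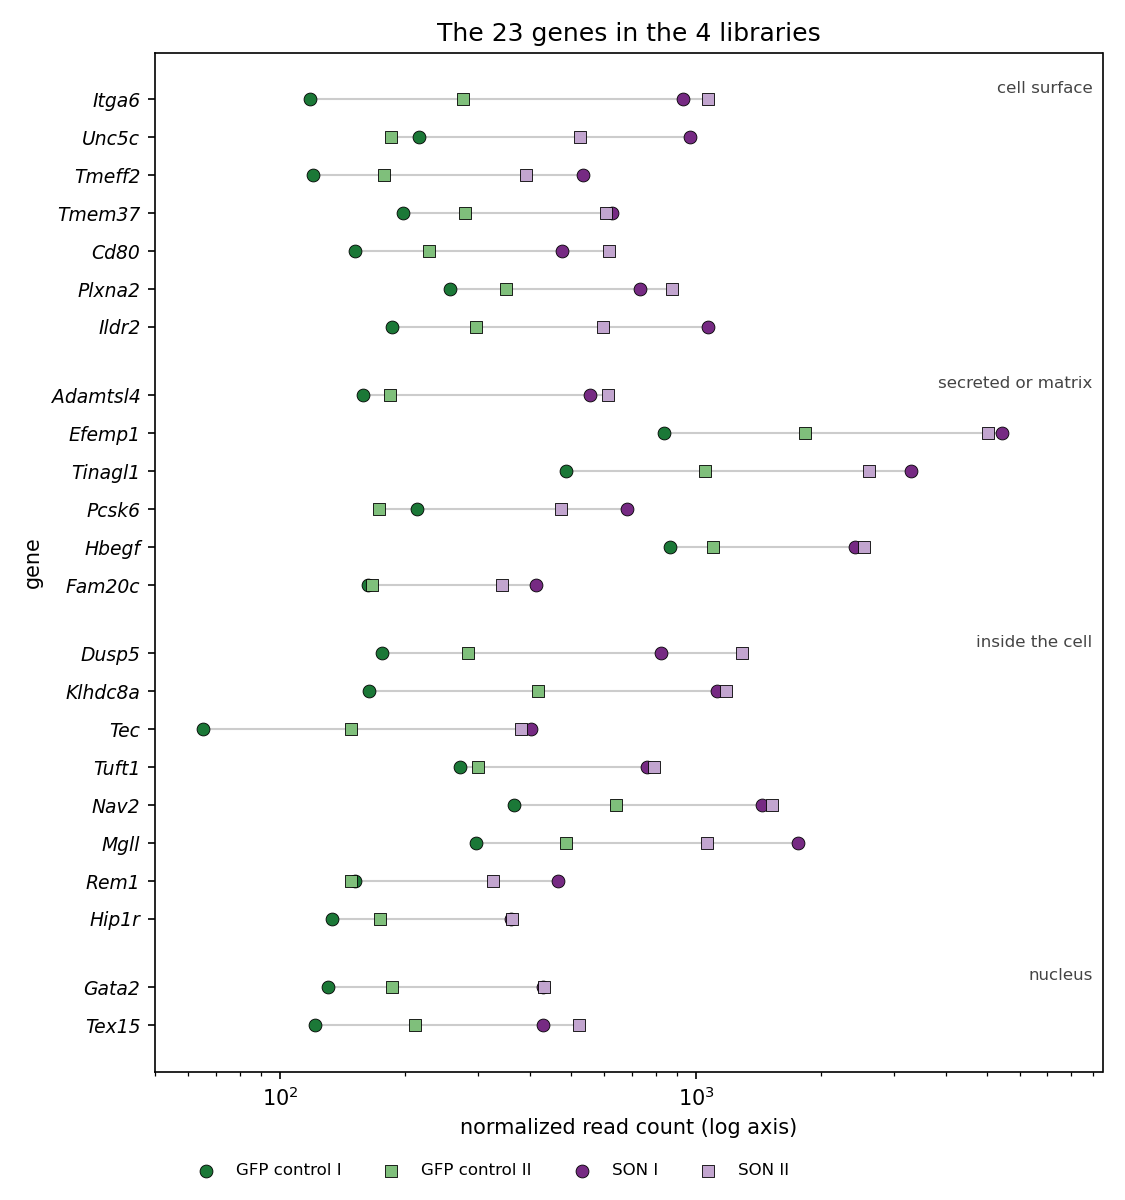
Normalized read count (x axis, log scale) of each of the 23 genes (y axis), 1 point per library and no averaging. The libraries are GFP control I, GFP control II, SON I and SON II. Genes are grouped by where the protein acts, and Dusp5, a phosphatase of the nucleus, is drawn among the genes inside the cell. In every row both SON points lie to the right of both control points, as the rule requires, and in 20 of the 23 rows GFP control II lies to the right of GFP control I.

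The cell surface genes were led by Itga6, the gene with the largest ratio of the 23. Itga6 encodes the alpha 6 chain of laminin-binding integrins (chromosome 2, 71745616 to 71858416, plus strand, GRCm38). Its normalized read counts were 118 and 276 in GFP control I and II and 929 and 1069 in SON I and II. The control libraries differed 2.34-fold and the SON libraries were close, and the log2 difference between the groups was 2.46 (SE 0.42). Its beta partners did not share that size: Itgb1 had 43549 and 39840 against 66900 and 47775, and Itgb4 overlapped between the groups with 56.0 and 78.5 against 66.8 and 209.

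The next surface genes, Unc5c and Plxna2, encode receptors of axon guidance cues. Unc5c, a netrin receptor that mediates repulsion, had 215 and 185 in the controls and 969 and 526 in SON (log2 difference 1.83, SE 0.33). Here the spread lay in the SON group, where SON I was 1.84 times SON II. Plxna2, a plexin that serves as a receptor for semaphorins, had 256 and 350 against 734 and 875 (log2 difference 1.42, SE 0.23). Both genes are long, at 369709 bases for Unc5c on chromosome 3 and 198652 bases for Plxna2 on chromosome 1.

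The remaining surface genes were of mixed function. Tmeff2, a membrane protein with EGF-like and follistatin-like domains, had 120 and 178 in the controls against 536 and 389 in SON. Tmem37, a small membrane protein related to calcium channel gamma subunits, had 197 and 278 against 627 and 608. Its SON libraries were nearly equal, and its gene, at 6698 bases and 2 exons, was the shortest of the 23. Cd80, the B7 ligand by which antigen-presenting cells engage CD28 and CTLA-4 on T cells, had 151 and 228 against 477 and 617. Ildr2, an immunoglobulin-like receptor of cell contacts, had 185 and 296 against 1069 and 599, so SON I was far above SON II and the rule was met only just, at a ratio of 2.02.

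Among the secreted and matrix genes, Efemp1 was the most abundant per length in both groups. It encodes fibulin-3, an extracellular matrix glycoprotein, and lies on chromosome 11 (28853204 to 28926743, plus strand, 11 exons). Its normalized read counts were 838 and 1830 in GFP control I and II and 5431 and 5053 in SON I and II, a log2 difference of 2.08 (SE 0.38). Most of that error came from the controls, which differed 2.18-fold. Tinagl1, which encodes a secreted basement membrane protein related to the tubulointerstitial nephritis antigen, had 488 and 1053 against 3286 and 2612 (log2 difference 2.03, SE 0.38), again with unequal controls.

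Adamtsl4 had close libraries in both groups and the largest ratio after Itga6. It encodes an ADAMTS-like protein without protease activity that associates with fibrillin microfibrils, and lies on chromosome 3 (95676201 to 95687917, minus strand, 18 exons). Its values were 159 and 184 in the controls and 555 and 615 in SON, a log2 difference of 1.77 (SE 0.20). Hbegf, the EGF receptor ligand (chromosome 18), had 867 and 1101 against 2407 and 2535 (log2 difference 1.34, SE 0.17). Both libraries of either group were close for this gene, which had the third largest mean of the 23.

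The last secreted-pathway genes encode enzymes that modify other secreted proteins. Pcsk6, the proprotein convertase PACE4, which cuts precursors of growth factors such as Nodal, had 214 and 173 in the controls against 682 and 473 in SON. Fam20c, a kinase of the Golgi that phosphorylates secreted proteins, had 163 and 166 against 413 and 341, with the smallest log2 difference of the 23, 1.18 (SE 0.21). Its control libraries were nearly the same.

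Of the genes that act inside the cell, Dusp5 had the largest difference. This ERK phosphatase (chromosome 19, 53529109 to 53542431, plus strand, 4 exons) had 175 and 282 normalized reads in the controls and 825 and 1291 in SON, a log2 difference of 2.21 (SE 0.33). It was the gene in which SON II exceeded SON I the most, by 1.57-fold. Klhdc8a, a kelch domain protein, had 164 and 416 against 1121 and 1181 (log2 difference 2.14, SE 0.45), and Tec, a non-receptor tyrosine kinase best known from blood cells, had 65.1 and 148 against 401 and 380 (log2 difference 1.98, SE 0.42). For both, the controls differed more than 2-fold while the SON libraries were close. Tuft1, which encodes tuftelin, a protein first described in tooth enamel, had 271 and 299 against 761 and 795, with close libraries in each group.

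The other intracellular genes acted on the cytoskeleton, lipids, calcium channels and endocytosis. Nav2, neuron navigator 2, a microtubule-associated protein of axon outgrowth and the longest gene of the 23 at 701375 bases, had 366 and 643 in the controls against 1440 and 1525 in SON. Mgll, monoacylglycerol lipase, which breaks down an endocannabinoid, had 296 and 487 against 1760 and 1064. Rem1, a small GTPase that inhibits voltage-gated calcium channels, had 151 and 148 against 466 and 325. In Mgll and Rem1, SON I was the higher SON library. Hip1r, which links clathrin-coated vesicles to actin, had 134 and 174 against 360 and 361.

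The Hip1r value has a limit set by its neighbour. Hip1r shares 918 exonic bases with Vps37b on the opposite strand, and reads of this library kit carry no strand, so reads in the shared bases cannot be assigned to either gene. Vps37b had 256 and 290 in the controls against 387 and 617 in SON. Dusp5, Unc5c, Mgll and Ildr2 overlap annotated antisense genes. Those of Unc5c, Mgll and Ildr2 had at most 4.41 normalized reads in any library, and that of Dusp5 had no value. Nav2, Pcsk6 and Hip1r share exonic bases with an annotated gene on their own strand.

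The group of the nucleus held 2 genes, since Dusp5 was placed with the genes inside the cell. Gata2, a zinc finger transcription factor required in blood stem and progenitor cells, had 130 and 185 in the controls against 428 and 432 in SON (log2 difference 1.46, SE 0.25). Tex15, required in male germ cells for meiosis and for silencing of transposons, had 121 and 212 against 428 and 523 (log2 difference 1.56, SE 0.32) and had the smallest ratio of the 23, 2.02. Tex15 was the only gene of the 23 known mainly for its role in germ cells.

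The thresholds cut through a continuous range. Just inside the ratio lay Fam20c (2.05), Ildr2 (2.02) and Tex15 (2.02), and just outside it lay Smad6 (1.98), Trim16 (1.98) and Mgat5 (1.97). Just inside the mean lay Tec (249), Hip1r (257) and Fam20c (271), while Serpinb8 (199), Olfm2 (196) and Sh3bgr (192) passed the ratio but not the mean. Trim16 was far more abundant than most of the 23, with 766 and 914 in the controls against 2257 and 1813 in SON. The rule needs all 4 libraries, and with 3 of them more genes passed: 37 and 142 when GFP control I or II was left out, and 77 and 183 when SON I or II was left out. The 23 genes keep their ratio in each of these sets by construction, and only Tec was lost, by its mean, when SON I was left out.

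**Figure D2:**
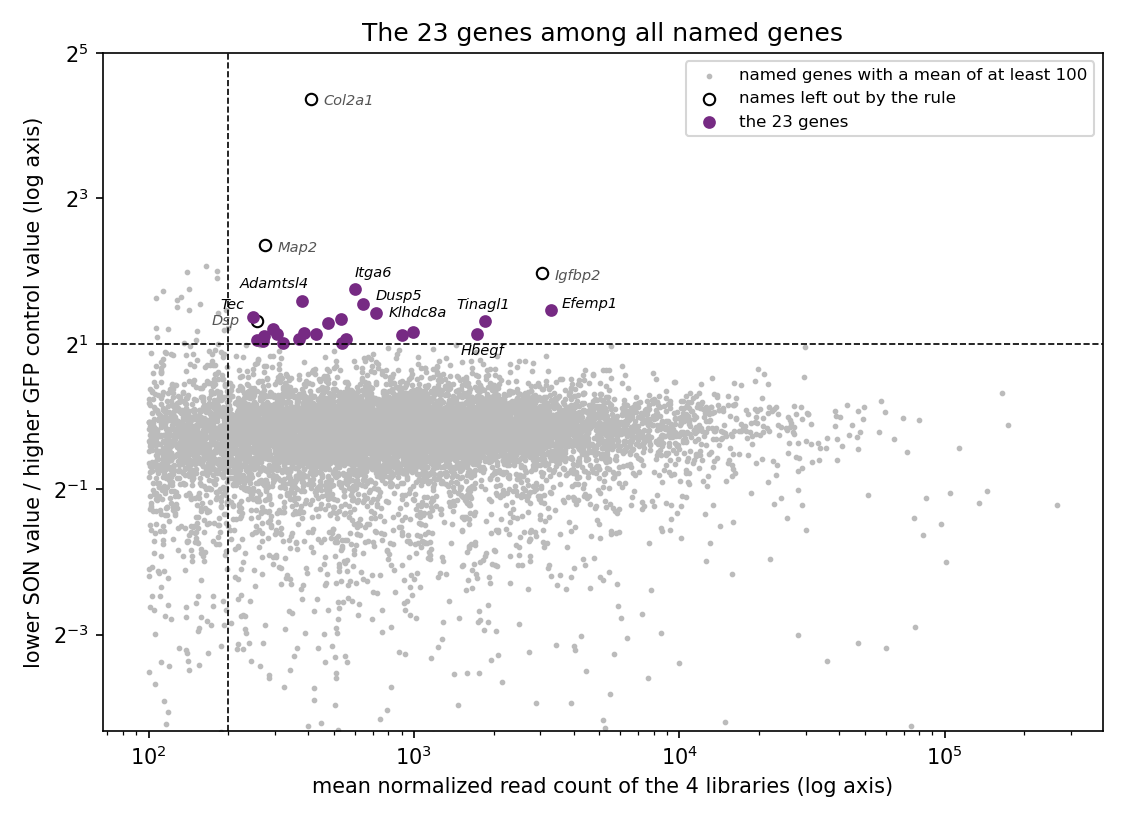
Ratio of the lower SON value to the higher control value (y axis, log scale) against the mean normalized read count of the 4 libraries (x axis, log scale), 1 point per named gene with a mean of at least 100; dashed lines are the thresholds of 200 and 2. The 23 genes lie just above the ratio line, between 2.02 and 3.37, and Col2a1, Map2, Igfbp2 and Dsp are drawn as open circles; Pou5f1, at 0 in both controls, and genes below the lower edge are not drawn.

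Over all genes, limma on log2 of the value plus 1 called 5 of 15283 tested genes higher in SON at an adjusted p under 0.05 (0.0327%), and 0 of the 23 were among them. By edgeR's quasi-likelihood test on recovered reads 5 genes were called and again 0 of the 23. All 23 passed an unadjusted p under 0.05 by limma, as did 5.99% of tested genes, and all 23 were called higher at an adjusted p under 0.05 in the authors' deposited table, where 217 of 14637 genes were (1.48%). DESeq2 on recovered reads also called all 23, among 224 of 13757 genes (1.63%). The rule used the same contrast, so nothing is read from these counts. The 5 limma calls became 0 when GFP control I or either SON library was left out, and 9 when GFP control II was.

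The libraries of a group differed for these genes in a way the rule did not require. GFP control II was above GFP control I in 20 of the 23 genes (87.0%), against 44.4% of the 9587 named genes. The median of GFP control II over GFP control I was 1.48 (0.81 to 2.54), against 0.98 for the 9587. Pcsk6, Unc5c and Rem1 were the exceptions. The controls differed at least 2-fold in Itga6, Efemp1, Klhdc8a, Tec and Tinagl1, all among the 8 genes with the largest ratios. The libraries were also compared in pairs over 15896 to 17516 genes. A chi-square value, scaled to its degrees of freedom, is larger for less alike libraries. It was 48.2 for GFP control II with SON II, 83.4 for the controls and 61.7 for SON. The other pairs across groups had 93.9 to 158. GFP control II was thus nearer to SON II than to GFP control I, though read numbers differed between pairs. Whether this bears on the lean to GFP control II was not tested.

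The SON libraries showed no such lean. SON I was above SON II in 11 of the 23 genes (47.8%), against 55.6% of the 9587, with a median ratio of 1.00 (0.64 to 1.84). SON libraries lay within 1.3-fold of each other in 16 genes and control libraries in 8. Adamtsl4, Tuft1, Hbegf, Hip1r and Fam20c were within 1.3-fold in both groups. Genes within 1.3-fold, or with controls at least 2-fold apart, were not counted over the 9587 named genes. Nothing particular to the 23 genes is therefore read from these counts.

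**Figure D3:**
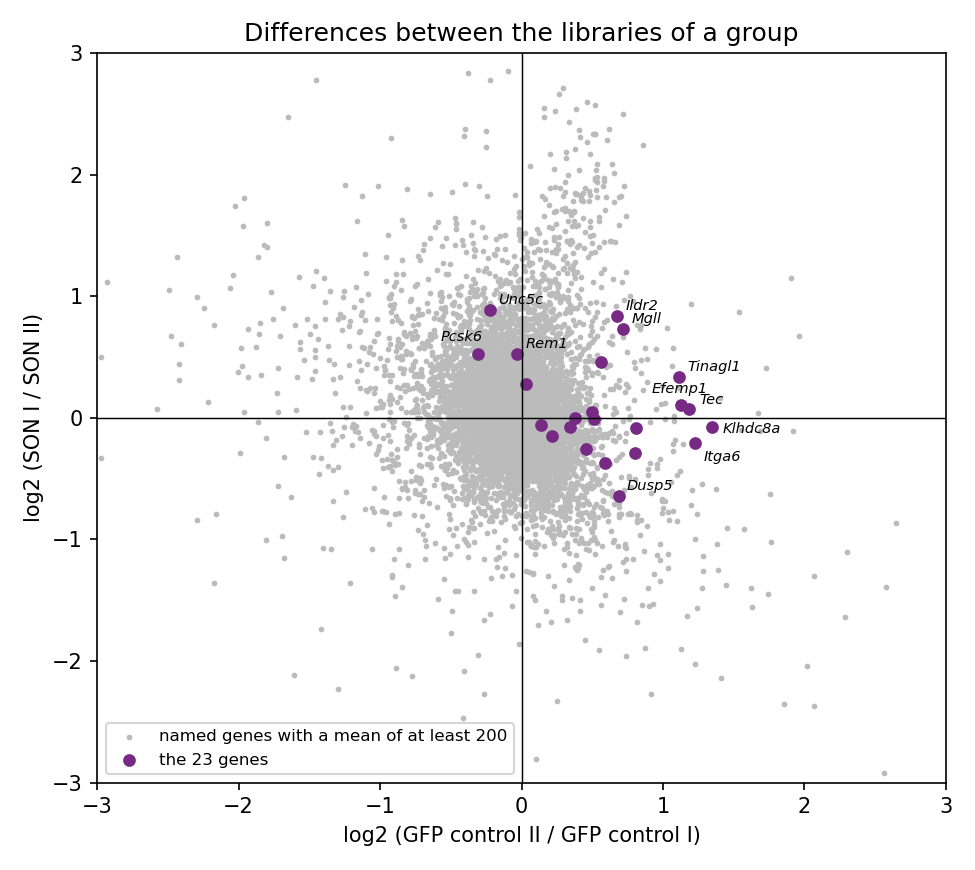
Log2 ratio of SON I to SON II (y axis) against log2 ratio of GFP control II to GFP control I (x axis), 1 point per named gene with a mean of at least 200 and larger points for the 23 genes; genes beyond 3 on either axis are not drawn. The 23 genes lie mostly to the right of 0, with 20 of 23 higher in GFP control II, and about evenly above and below 0 on the y axis.

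Close relatives were looked at in 14 sets chosen once the 23 genes were known, so their counts describe those sets only. Of 103 tested relatives, limma called 0 higher and 0 lower at an adjusted p under 0.05. Both SON values were above both control values in 32 (31.1%) and below in 18, while over all 15283 tested genes 22.2% were above and 23.7% below. The median log2 difference of the 103 was 0.14, against -0.01 for all tested genes.

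The netrin and semaphorin set leaned the same way as Unc5c and Plxna2. In it, both SON values were above both control values in 10 of 18 tested relatives and below in 2, with a median log2 difference of 0.54. Unc5d, another netrin receptor, had 22.6 and 52.9 in the controls against 117 and 104 in SON. The plexin gene Plxna1, far more abundant than Plxna2, had 4257 and 4018 against 6883 and 6635, and Plxna4 had 111 and 99.3 against 191 and 210. The ligand gene Ntn1 went the other way, with 3191 and 2157 against 1503 and 1842.

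Relatives of Dusp5 and Hbegf were mixed. Of 17 tested Dusp phosphatases, ERK pathway inhibitors and early response genes, 4 lay above the controls in both SON libraries. They were the phosphatase genes Dusp1, Dusp4, Dusp6 and Dusp8. Dusp1 had 1148 and 1115 in the controls against 1940 and 2361 in SON. Spry4 and Spred1, inhibitors of the ERK pathway, lay only just below. Of 10 tested EGF receptor ligands, receptors and sheddases, the ligand genes Btc and Tgfa lay above and Adam17, the main sheddase of these ligands, lay below. In both sets the genes above were near the 22.2% share over all 15283 tested genes, so nothing is read from their number. The receptor gene Egfr overlapped between groups, with 5642 and 3310 against 3912 and 2920.

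Several of the 23 genes had a close relative that lay the other way. Pcsk5, the convertase most like Pcsk6, had 5752 and 2577 in the controls against 792 and 858 in SON. Fam20a, the partner protein of Fam20c, had 1094 and 624 against 305 and 348, and the fibulin gene Fbln1 had 15034 and 4554 against 2277 and 2209. In these 3 genes GFP control I was the higher control, the reverse of most of the 23. Gem and Rrad, GTPases of the family of Rem1, lay below as well, as did Cd276 and Icosl beside Cd80.

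Relatives of Gata2 and Mgll lay on both sides, and Hip1, the relative of Hip1r, lay above. Gata3 had 28.4 and 61.8 in the controls against 102 and 122 in SON, while Gata6 lay only just below. Hip1 had 1471 and 1527 against 2664 and 2098. Dagla, which makes the endocannabinoid that Mgll breaks down, had 215 and 205 against 344 and 400, and the receptor gene Cnr1 lay below, with 195 and 228 against 120 and 167.

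**Figure D4:**
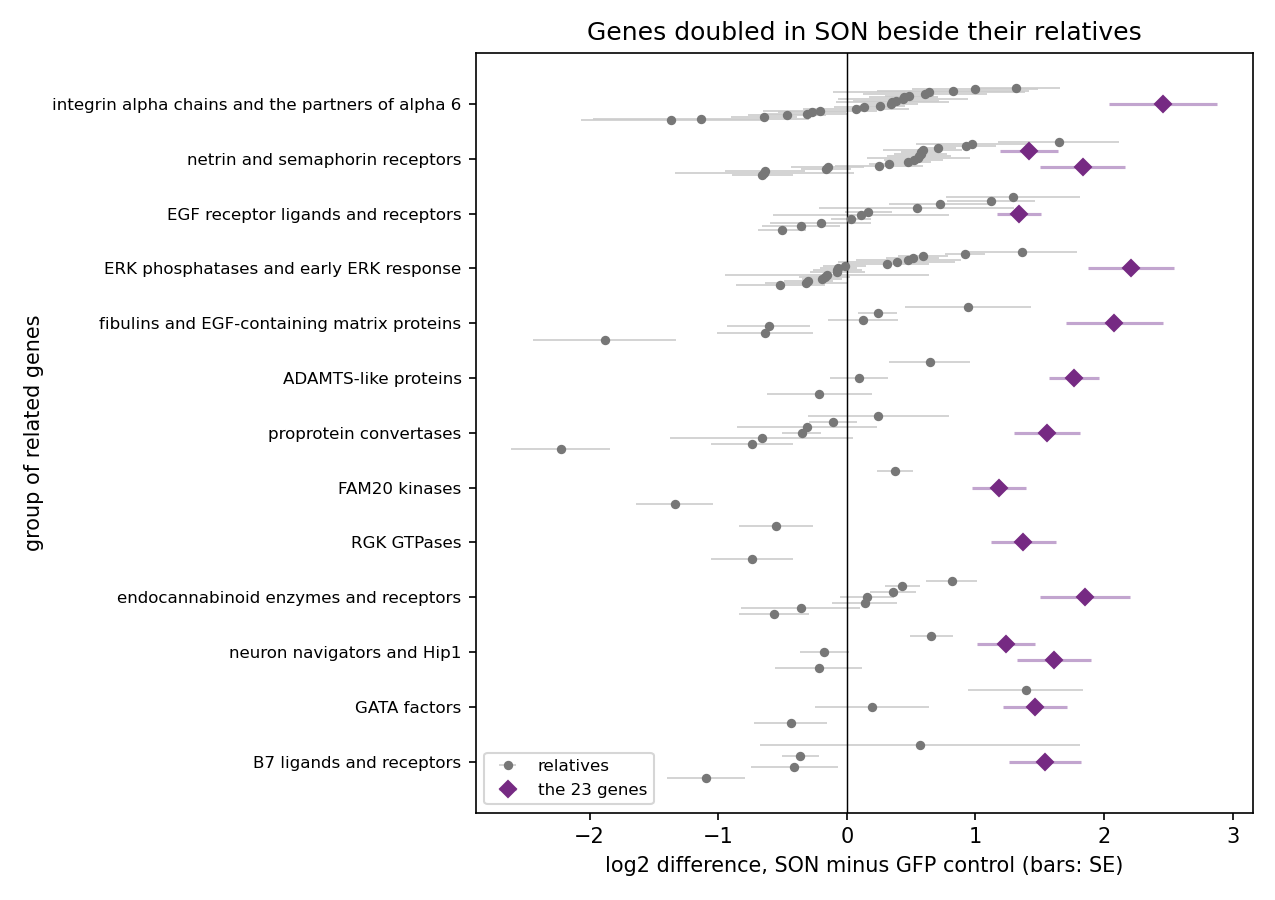
Log2 difference between SON and GFP control on the log2(value + 1) scale (x axis) for genes of the list (diamonds) and their tested relatives (circles), by set (y axis); bars are standard errors from limma with 2 libraries per group. The diamonds lie between 1.18 and 2.46, as the rule fixes, while relatives spread on both sides of 0, from -2.22 (Pcsk5) to 1.65 (Unc5d).

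Families were matched by the start of the gene symbol, so a gene is counted only where its symbol fits one. Over all 9587 named genes 0.292% were doubled and 1.26% halved. Axon guidance genes gave 2 of 41 named genes with a mean of at least 200 (Plxna2 and Unc5c), with 0 halved. Extracellular matrix and protease genes gave 3 of 109 (Adamtsl4, Efemp1 and the set-aside Col2a1), with 6 halved, and secreted immune factors and receptors gave 1 of 89 (Cd80), with 9 halved. Transcription factors gave 2 of 405 (Gata2 and the delivered Pou5f1), with 2 halved. Symbols of kinases, phosphatases and GTPase regulators gave 1 of 384 (Dusp5), with 3 halved. Symbol matching left 14 of the 23 genes in no family, among them the kinases Tec and Fam20c, the GTPase Rem1 and the lipase Mgll, so these family counts do not cover them.

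All 23 genes were protein-coding and lay on 12 chromosomes, with 5 on chromosome 1. Their gene spans had a median of 55564 bases, against 26361 for the 9587 named genes, and 8 (34.8%) were over 100 kb, against 13.7%. Exonic length hardly differed, with medians of 5077 and 4827.5 bases. The spans of Nav2, Unc5c and Tmeff2 were the longest.

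Distances between the 23 genes and the values of their neighbours were read from the annotation. Gata2 and Mgll lie 517 kb apart on chromosome 6, and the 3 tested genes between them had log2 differences from -0.06 to 0.26. Tuft1 and Adamtsl4 lie 1017 kb apart on chromosome 3, and of the 32 tested genes between them 8 lay above and 11 below the controls in both SON libraries. None of the 46 nearest tested neighbours of the 23 genes was itself on the list. Both SON values lay above both control values in 18 of the 46 (39.1%) and below in 5 (10.9%), while over all 15283 tested genes these shares were 22.2% and 23.7%. The neighbours had log2 differences from -1.01 (Pdk1) to 2.42 (Dlx2, next to Itga6), and limma called 0 of them at an adjusted p under 0.05.

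None of the 23 genes was a marker in the 13 cell type lists, but some lists moved between libraries. Macrophage markers, a cell type that carries Cd80 and Tec, summed to 1442 and 1500 in the controls and 485 and 1281 in SON, with a negative log2 difference in 8 of 8 tested markers, and Ptprc, a defining gene, had 4.09 to 22.0 normalized reads. Neuron markers summed to 2356 and 3029 against 2814 and 3711, with Map2 doubled. Gap43 lay the other way, with 1513 and 1547 against 423 and 585. Stmn2 overlapped between the groups, with 162 and 797 against 776 and 1672. Of 9 tested neuron markers 8 had a positive log2 difference, with a median of 0.59. Epithelial markers summed to 114 and 284 against 379 and 821, and Dsp gave most of these reads in SON. Mesothelial markers had the largest median of the 13 lists, 1.01, with 5 of 7 tested markers positive. Their sums overlapped between the groups, at 1543 and 2146 against 1541 and 1873. Endothelial markers summed to 1383 and 1234 against 761 and 736, and Flt1 alone had 1076 and 843 against 352 and 292. The endothelial markers Kdr and Tek lay the other way. Fat cell markers summed to 16123 and 5113 against 1428 and 1337, with a median log2 difference of -1.08. Lpl gave most of these reads. Bone-forming cell markers summed to 41060 and 21216 against 11338 and 18545, with a median of -0.87, and Spp1 gave most of them. The sum of smooth muscle and pericyte markers was high in SON I alone. Of 11 tested markers 10 had a positive log2 difference, with a median of 0.79. In SON II, Myh11 (2776) lay above both controls and Acta2 (63378) below both. The part of any other cell type in the 23 genes was not tested.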

How the data were processed

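Each of the 4 samples was a messenger RNA library. Kit reads carry no strand. Per the submitters' processing notes the genome was GRCm38 (mm10) and the tools were STAR 2.4.0j, TopHat2 2.0.11, CASAVA 1.8.1, featureCounts of Subread, HTSeq 0.5.3p3 and DESeq2, with no role given. In the deposited gene table each value is a signal, which the authors made from read counts with 1 scaling step in each library: 100% of values were whole multiples of that step within 0.01 reads. Per the file headers it also holds the authors' DESeq2 log2 fold change, a test statistic (score), p-value and adjusted p-value. The table of 36284 repeat copies was not used.

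Values are the deposited normalized read counts. Whole reads were recovered for RPKM, edgeR 4.0.16 and DESeq2 1.42.0. A floor of 3 reads was 1.78 to 4.41 normalized reads. The fit over all genes was limma 3.58.1 in R 4.3.3, with a mean trend, on log2(value + 1) after filterByExpr. It was two-sided and Benjamini-Hochberg adjusted. The code was tested on simulated counts whose spread was set in advance, not taken from these libraries. That test does not show how the fit performs at the spread seen here. Standard errors from limma are printed. Coordinates came from GENCODE M21. Genes were named as list members, those next to a threshold, or relatives. The members, lists, relatives and motifs were chosen with earlier results of these data known. Alternatives were pseudocounts, no filter, TMM, other tools, other thresholds and left-out libraries.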

Additional observations from a re-analysis of the deposited data

How the results depend on the processing

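The 23 genes became 45 with a mean of at least 100, 13 with a mean of at least 400, 127 with a ratio of at least 1.5, 2 with a ratio of at least 3, and 152 when the group means were compared. Leaving out 1 library gave 37 to 183. TMM factors kept all 23, and CPM scaling gave 24, with 19 of the 23 and without Cd80, Hip1r, Plxna2 and Tex15.

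The limma count of 5 higher and 3 lower genes became 3 higher with a pseudocount of 0.1, and DESeq2 gave 224 higher and 381 lower. With 1 library left out, the higher count ran from 0 to 9 and the lower from 0 to 28. Where limma called 0, its unadjusted counts were 260 higher and 335 lower without GFP control I, and with SON I or SON II left out they were 1155 and 1429, or 1479 and 1412. A replicate block gave 4 higher and 7 lower. The labels do not say whether libraries of the same numeral were matched between the groups. Over the tested genes, I minus II in the controls had a correlation of 0.22 with I minus II in SON, from 2 pairs. A lone library was assumed to vary like the other group.

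All 184 log2 differences of the 23 genes under the alternatives kept their direction, as the rule fixes. The lowest was 1.05 (Fam20c), and for 17 of the 23 the lowest came without GFP control I. With 2 libraries a group, small differences are not detectable.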

Other observations

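The table has 335 genes without a name and with a mean of at least 200, which the rule leaves out. Of these, 6 passed the ratio, and all 6 were highest in SON I. Gm42418, which RefSeq lists as Rn18s-rs5, an 18S ribosomal RNA-related gene (chromosome 17, 39846958 to 39848788, GRCm38), had 18490 and 25745 normalized reads in GFP control I and II and 204007 and 55761 in SON I and II. Mir6236, Gm24187, Gm15564, Gm23935 and ENSMUSG00000089855 shared that order. Mir6236 had 236 and 459 against 3458 and 1240, and Gm24187 had 81.9 and 108 against 907 and 284. SON I exceeded SON II severalfold in these 6 genes, whereas its median ratio to SON II over the 23 named genes was 1.00.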
